A study of Neurospora crassa with 12 samples.

Results

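In all, 26 of the 9730 genes in the tables were raised in a single RNA-Seq library, replicate I of wild-type *Neurospora crassa* in high-Pi. Each of them stood at least 4-fold above its level in every one of the 11 other libraries. They were selected on these same values. CPM is the count of a gene divided by the total of its library, scaled to 1000000 counts, and a gene was taken when it reached at least 5 CPM in this library and at least 4 times its highest CPM in any of the others. The level of these genes in wild-type high-Pi replicate I is therefore a description of 1 library, with no replicate and no test.

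The study compared a *mat a* strain in which a hygromycin cassette replaces *mus-52* (*mus-52*::*hyg*) with 74A, a *mat A* wild-type strain. *mus-52* encodes a protein of the Ku heterodimer, which binds DNA ends for non-homologous end joining. Each strain was grown in high-Pi (10 mM) and in low-Pi (10 µM), with 3 biological replicates (I, II and III) in each of the 4 groups, or 12 libraries. Conidia of 6-day cultures germinated for 5 h (30 °C) with 44 mM sucrose and 50 mM citrate at pH 5.4 before every extraction, so every sample is young mycelium in bulk. The 2 strains also differ in mating type, and each genotype is a single stock, so strain, mating type and stock cannot be told apart. In a bulk sample, fewer cells of a type and less RNA per cell cannot be told apart either.

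Germinating conidia of *N. crassa* leave dormancy, form germ tubes and fuse with one another into a network. This early growth draws on respiration, nitrogen uptake and protein synthesis, and chaperones of the heat shock family rise in stress. Phosphate sensing runs through the *nuc-1* pathway, which activates phosphate transporters and phosphatases when Pi is scarce. Conidial fusion needs signalling proteins such as SO and the MAP kinase MAK-2, and Prm1 acts at the plasma membranes when they merge.

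Total counts ranged from 17574263 to 56152963 per library, with 32392814 in wild-type high-Pi replicate I. The deleted gene, *mus-52* (NCU00077), checks the strain labels. It had 23.9, 21.4 and 23.2 CPM in the *mus-52*-labelled high-Pi libraries and 25.1, 22.1 and 27.2 CPM in those in low-Pi, against 100.2, 34.7 and 21.9 CPM in wild-type high-Pi and 34.8, 19.6 and 18.7 CPM in wild-type low-Pi. Because the deleted gene was counted in all of them, at 21.4 to 27.2 CPM against 18.7 CPM or more in the wild type, the name used for them here is libraries labelled *mus-52*. *mfa-1* (NCU16992), the pheromone precursor of *mat a* strains, lay between 608 and 3020 CPM in the libraries labelled *mus-52* and between 4.41 and 18.4 CPM in the wild-type libraries.

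The same rule was then run with each of the other 11 libraries as the single library, and it gave 0 genes for each of them. Wild-type high-Pi replicate I also held 229 genes at least 2-fold above every other library, against 0 to 2 genes for any other library, and 91 by TMM, a scaling that sets the bulk of genes equal between libraries. In the opposite direction wild-type high-Pi replicate I held 10 genes at least 2-fold below every other library, against 0 to 8 genes for any other library. By TMM it held 53 genes this far below, against the 91 above, so the balance of the directions depended on the scaling. The larger ratio of the selection rule, reversed, gave 1 gene by column totals, NCU02169 (chromosome I, 1016977 to 1018546). It had 4.97 CPM, against 23.6 CPM or more elsewhere. The 26 genes together held 0.256% of the counts of wild-type high-Pi replicate I and 0.018% to 0.033% of those of the other libraries. Their median level was 66.9 CPM in this library and 3.03 to 8.16 CPM in the others.

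**Figure D1:**
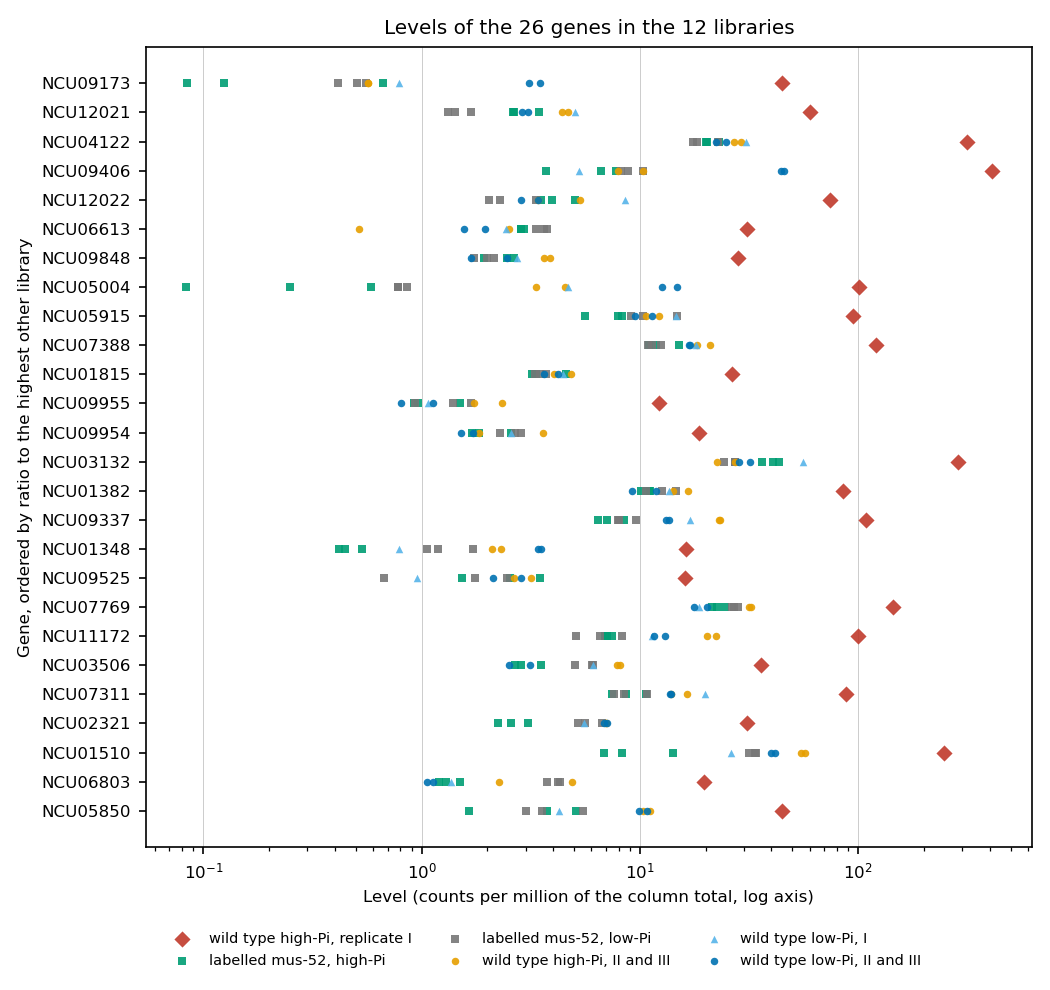
Levels of the 26 genes in the 12 libraries, as CPM on a log axis, with 1 row per gene and 1 point per library. Wild-type high-Pi replicate I (red diamonds) lies between 12.3 and 409 CPM, and for every gene it stands at 4.02 to 12.9 times the next highest library, as the selection requires.

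The size of the excess depends on the scaling. Wild-type high-Pi replicate I had a TMM factor of 1.31 and the other libraries 0.891 to 1.03. By column totals the median gene stood 0.40 above replicates II and III on the log2 scale, and by TMM 0.04 above them. On the TMM scale the ratios of the 26 genes to their next highest library ran between 2.86 and 9.37, and 10 of them still reached 4. All 26 remained the highest in this library on both scales. The exact 95% interval of the ratio, from counting error alone, had a lower bound of at least 4 for 19 of the 26 genes and under 4 for the others. It uses the same counts that the rule selected on, so it gives no support to the excess. The smallest count in this library was 397.

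Among the members with a product name were 4 enzymes and a transporter. NCU09406 (chromosome VII, 1217822 to 1220555), a copper amine oxidase (an enzyme class that releases ammonia from amines), had the highest level, 409 CPM. Its level was 3.72, 6.67 and 7.80 CPM in the *mus-52*-labelled high-Pi libraries, 8.82, 10.4 and 8.16 CPM in those in low-Pi, 10.4 and 7.98 CPM in wild-type high-Pi replicates II and III, and 5.24, 44.2 and 45.8 CPM in wild-type low-Pi. A middle level was thus formed by 2 of the wild-type low-Pi libraries (II and III), above all the rest but exceeded 8.93-fold by the single library.

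NCU04122 (chromosome V, 4917314 to 4919726), annotated as a malate dehydrogenase, reached 316 CPM, against 17.4 to 30.8 CPM in the other 11 libraries. Malate dehydrogenases interconvert malate and oxaloacetate. It was one of the steadiest of the 26 genes outside the single library, since its highest and lowest other values differed by 1.76-fold, and its ratio was 10.3 (95% interval 9.54 to 11.1). NCU06613 (chromosome IV, 1806509 to 1809215), an ammonium transporter, which moves ammonium across membranes, had 31.0 CPM in wild-type high-Pi replicate I. It had 2.85, 2.96 and 2.85 CPM in the *mus-52*-labelled high-Pi libraries, 3.62, 3.35 and 3.75 CPM in those in low-Pi, 2.50 and 0.519 CPM in wild-type high-Pi replicates II and III, and 2.44, 1.56 and 1.94 CPM in wild-type low-Pi. NCU06803 (chromosome II, 1895966 to 1898452), a glutamate decarboxylase, which turns glutamate into γ-aminobutyrate, was near the threshold with 19.7 CPM and a ratio of 4.02. NCU05850 (chromosome VII, 4049256 to 4051524), a rubredoxin-NAD(+) reductase, an electron-transfer enzyme, was also at 4.02, with 44.9 CPM against 1.65 to 11.2 CPM.

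Genes named for cell fusion and meiosis were also among them. NCU09337 (chromosome II, 4147012 to 4150433), Prm1, reached 108 CPM, against 7.09, 8.46 and 6.46 CPM in the *mus-52*-labelled high-Pi libraries, 7.96, 8.03 and 9.62 CPM in those in low-Pi, 23.2 and 23.1 CPM in wild-type high-Pi replicates II and III, and 16.9, 13.7 and 13.2 CPM in wild-type low-Pi. NCU01510 (chromosome II, 3227828 to 3233310), named meiotically up-regulated 190 protein, reached 247 CPM, against 6.88 to 56.8 CPM elsewhere.

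Most of the 26 genes have no named product. The names in the tables of the study gave a product to 7 of them, called 13 hypothetical and did not list 6. The largest ratio of all, 12.9 (95% interval 10.1 to 16.7), belonged to NCU09173 (chromosome III, 250619 to 252198), a hypothetical protein, with 44.8 CPM in wild-type high-Pi replicate I. Elsewhere it had 0.125, 0.667 and 0.0839 CPM in the *mus-52*-labelled high-Pi libraries, 0.414, 0.507 and 0.559 CPM in those in low-Pi, 0.569 and 0.566 CPM in wild-type high-Pi replicates II and III, and 0.784, 3.48 and 3.11 CPM in wild-type low-Pi. The single library was therefore 78.9-fold above the mean of the other replicates of its own group, a mean that rests on 10 and 12 counts. NCU05004 (chromosome VI, 4117160 to 4118515), another hypothetical protein, had 101 CPM, against 0.0833 to 0.853 CPM in the libraries labelled *mus-52* and 3.36 to 14.8 CPM in the other wild-type libraries.

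The remaining genes were steadier or lower. NCU03132 had 288 CPM against 22.6 to 56.1 CPM, NCU07769 had 145 CPM against 17.8 to 32.2 CPM, and NCU07388 had 121 CPM against 10.9 to 21.0 CPM. NCU11172, NCU05915, NCU07311 and NCU01382 lay between 84.9 and 99.9 CPM, and NCU03506, NCU02321, NCU09848, NCU01815, NCU09954, NCU01348, NCU09525 and NCU09955 between 12.3 and 35.9 CPM. Over the 11 other libraries the highest value of a member was a median of 3.41 times its lowest, against 2.72 for all 6982 genes of at least 1 CPM on average and no count of 0. The members therefore included both steady genes, such as NCU01815, with 3.22 to 4.81 CPM, and variable ones, such as NCU05004 at 178-fold.

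The next highest library was a wild-type one for 23 of the 26 genes, of high-Pi for 13 and of low-Pi for 10. That value is the one the rule used, and no share over all genes stands beside it, so the count only describes the selection. Libraries labelled *mus-52* came next for 3 genes, NCU06613, NCU05915 and NCU09525. Just outside the selection lay NCU05648, NCU03779 and NCU04797, with ratios of 3.99, 3.94 and 3.89 and levels of 21.2, 123 and 115 CPM, and just inside lay NCU05850, NCU06803 and NCU01510, with ratios of 4.02, 4.02 and 4.34. NCU08152, NCU01158 and NCU09455 reached the ratio at 3.33, 3.06 and 1.67 CPM and were left out by the floor.

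Of the 10 genes that the study names as most up-regulated by high-Pi in the wild type, 5 are among the 26: NCU12021, NCU12022, NCU09173, NCU06613 and NCU06803. That list was made from these same libraries and is no independent evidence. Of the other 5, NCU08447 had 40.9 CPM in wild-type high-Pi replicate I and 3.70 times the next library, and NCU07752 was also highest in it. NCU03921, NCU05616 and NCU09604 were higher elsewhere, at 0.386, 0.635 and 0.668 times the highest other library.

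The genes were looked up on the NC12 assembly for what they share beyond the rule. Neighbouring genes formed 2 pairs. NCU12021 (chromosome VII, 1570143 to 1571561) and NCU12022 (chromosome VII, 1568960 to 1570548) overlap by 406 bp, and because the use of strand in counting is not given, reads in the overlap cannot be assigned to 1 of them. They had 59.9 and 73.9 CPM in the single library and next highest values of 5.04 and 8.5 CPM, both in wild-type low-Pi replicate I. The genes on either side, NCU04528 and NCU06170, had ratios of 0.388 and 1.58, so neither met the rule. NCU09954 and NCU09955 (chromosome V, 6035121 to 6038202 and 6038404 to 6040286) lie side by side without overlap, with 18.7 and 12.3 CPM, and their flanks NCU09953 and NCU09956 had ratios of 1.93 and 2.82 at 4.29 and 0.803 CPM.

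In all, 8 of the 26 genes (30.8%) overlap another gene, against 22.8% of all genes with a position. Chromosome V held 7 of the 26 (26.9%, against 16.2% of all genes), and chromosome I held 2 (7.69%, against 24.1%). Within 100 kb of a chromosome end lay 2 genes, NCU05004 and NCU09525 (7.69%, against 4.0%). The median gene length was 2341 bp, against 2129 bp for all genes. Across all genes of at least 5 CPM on average, the log2 ratio of wild-type high-Pi replicate I to replicates II and III had medians of 0.36, 0.51, 0.61 and 0.73 in 4 classes of gene length of about equal size, shortest first. The part of gene length in the levels of the 26 genes was not tested. All 26 have 1 annotated transcript.

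Gene lists describe the state of the library beyond the 26 genes, as log2 ratios of wild-type high-Pi replicate I over the mean of replicates II and III. Each is read against the median of all 9131 genes with a count, 0.40 by column totals and 0.04 by TMM, and none is tested. Among all these genes 31.9% were higher in wild-type high-Pi replicate I than in each of the other 11 libraries by column totals (2916 genes), and 1283 were by TMM.

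Genes of cell fusion and incompatibility had the highest median of the 30 lists, 1.55 (TMM 1.12), and all 8 measured lay above the other 11 libraries by column totals, 5 of them by TMM. *so* (NCU02794), which is needed for fusion of germ tubes, had 258 CPM, against 82.6, 83.6 and 94.1 CPM in the *mus-52*-labelled high-Pi libraries, 74.7, 89.6 and 83.9 CPM in those in low-Pi, 63.8 and 56.7 CPM in wild-type high-Pi replicates II and III, and 93.4, 84.1 and 86.6 CPM in wild-type low-Pi. *mak-2* (NCU02393), the MAP kinase of the same process, had 4.75 CPM, against 0.967 to 2.42 CPM elsewhere. Prm1, one of the 26, belongs to this list, so its value was in part chosen. The mutagen-sensitive genes, which include *mus-52* itself, had a median of 1.12 (TMM 0.67), with 8 of 21 above all other libraries, 3 by TMM. Glycoside hydrolases, which cut polysaccharides, had a median of 0.86 (TMM 0.43), with 25 of 77, 18 by TMM. By column totals these shares were 38.1% and 32.5%, near the 31.9% of all genes. By TMM 1283 of all 9131 genes lay above the other libraries.

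Respiratory complex I, the proton-pumping NADH dehydrogenase of mitochondria, was high in this library. Of its 29 measured subunit genes 27 were higher in wild-type high-Pi replicate I than in every other library, 19 by TMM, with a median of 0.94 (TMM 0.46). Their summed level was 2751 CPM, against 1142 to 1784 CPM. The medians of the other mitochondrial lists were not high. The citric acid cycle had a median of −0.16 (TMM −0.58), mitochondrial import one of −0.06 (TMM −0.53) and the 3 genes of the respiration list one of −0.29 (TMM −0.78). Those 3 genes ran from −1.05 to 2.60, so their median hides a wide spread. The mitochondrial chaperone bcs1 (NCU03921) had 453 CPM, against 82.0 and 67.1 CPM in wild-type high-Pi replicates II and III. It had 668 to 1175 CPM in the *mus-52*-labelled low-Pi libraries. The vacuolar ATPase, which acidifies the vacuole, showed 11 of 13 genes above all other libraries, 7 by TMM, with a median of 0.54 (TMM 0.06). Nitrogen metabolism genes had a median of 0.80 (TMM 0.37), with 6 of 12 above all other libraries, 4 by TMM. One of the 12 is the ammonium transporter NCU06613, which the selection chose, and *nit-3* (NCU05298), nitrate reductase, had 3141 CPM against 848 to 2084 CPM. The list went both ways: 1 of the 12, *am* (NCU01195), lay below all other libraries, with 2641 CPM against 3269 to 4202 CPM.

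The heat shock list lay lowest, with a median of −1.96 (TMM −2.45). *hsp98* (NCU00104), a disaggregase, had 199 CPM in wild-type high-Pi replicate I, against 100.3, 88.3 and 84.3 CPM in the *mus-52*-labelled high-Pi libraries, 126, 89.0 and 113 CPM in those in low-Pi, 7532 and 7277 CPM in wild-type high-Pi replicates II and III, and 1520, 11464 and 10784 CPM in wild-type low-Pi. *hsp30* (NCU09364), a small heat shock protein, had 74.8 CPM, against 2904 and 3218 CPM in replicates II and III. Summed over its 7 genes the list held 6954 CPM in wild-type high-Pi replicate I and 10629 CPM in wild-type low-Pi replicate I, against 30283 to 44695 CPM in the other 4 wild-type libraries and 4016 to 5355 CPM in the libraries labelled *mus-52*. The list was not uniform: *grp78* (NCU03982), a chaperone of the endoplasmic reticulum, had 1978 CPM in wild-type high-Pi replicate I, against 326 to 499 CPM in the libraries labelled *mus-52* and 442 to 1933 CPM in the other wild-type libraries.

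Ribosomal protein genes were low, with a median of −0.68 (TMM −1.16) and 6 of 7 below all other libraries on both scales. Of all 9131 genes, 341 (3.73%) lay below all other libraries by column totals and 928 by TMM. The summed level of the ribosomal protein genes was 8008 CPM in wild-type high-Pi replicate I, against 10533 to 22382 CPM in the other libraries. The nucleolar genes listed by the study separated the 2 libraries with the number I: their median was 0.41 for wild-type high-Pi replicate I by column totals and −0.04 by TMM, each close to that of all genes, and 2.89 for wild-type low-Pi replicate I over replicates II and III. Genes of glyoxylate and gluconeogenesis had a median of −0.64 (TMM −1.12). The phosphate list, with *nuc-1* and its partners, had a median of 0.51 (TMM 0.04) and 1 of 7 genes above all other libraries.

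Markers of other cell states were checked for the same library. Conidiation genes had a median of 0.55 (TMM 0.12), with 2 of 11 above all other libraries, and their summed level was 257 CPM, against 179 to 603 CPM in the others. Genes of sexual development had a median of 0.55 (TMM 0.20), with 6 of 11 above all other libraries by column totals and 1 by TMM. Their part in the levels of the 26 genes was not tested.

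**Figure D2:**
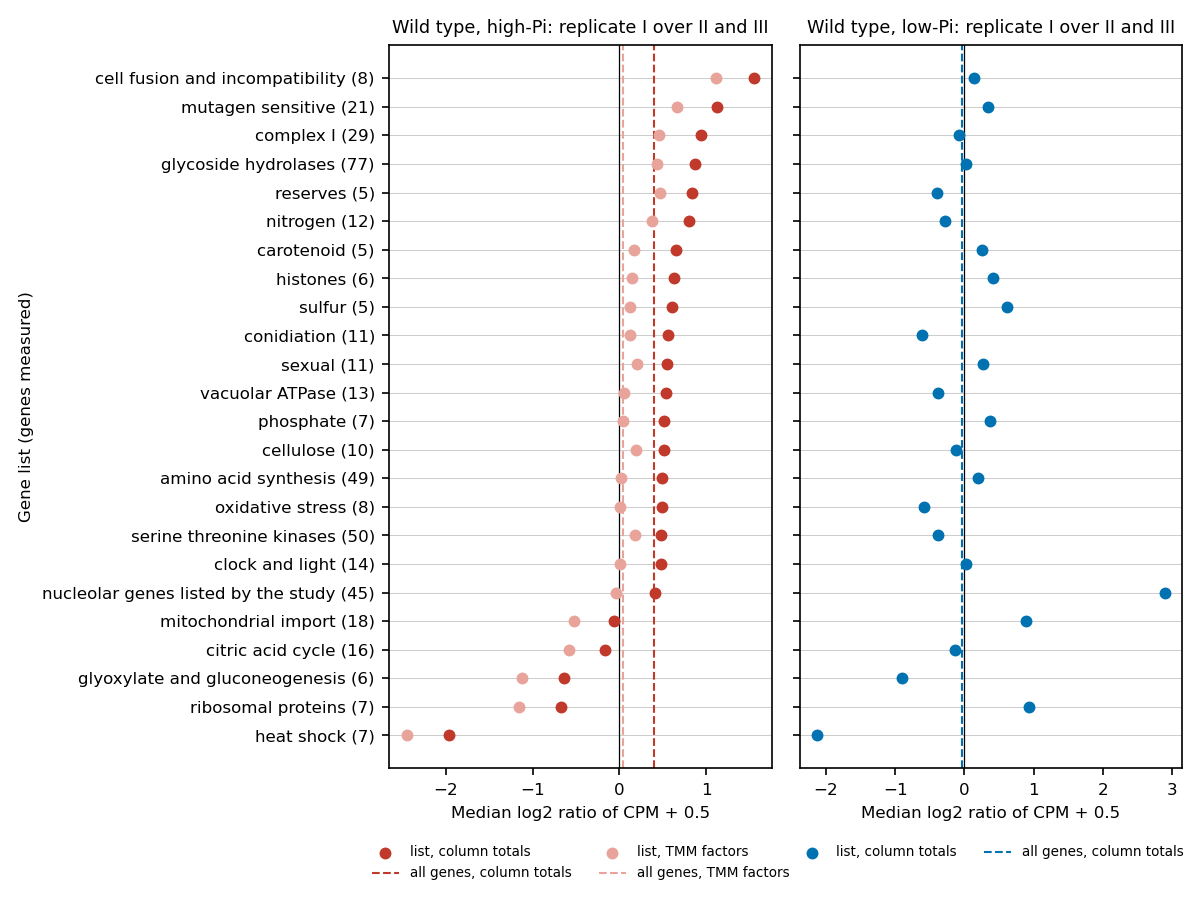
Median log2 ratio of each gene list with at least 5 genes measured, for wild-type replicate I over the mean of replicates II and III, in high-Pi (left, by column totals in dark red and by TMM in light red) and low-Pi (right, by column totals). Dashed lines are the medians of all genes (0.40 and 0.04 in high-Pi), and the heat shock list lies lowest in both media at −1.96 and −2.13.

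The 11 other libraries ask a separate question: how the 26 genes vary with strain and Pi where the single library is left out. The rule used the highest of these 11 values for each gene and held it at least 4-fold under the single library. The selection is therefore not independent of differences among the 11 libraries. Its part in the member counts and medians below was not tested. They were fitted with the quasi-likelihood test of edgeR over 7819 genes, which include all 26. A gene was called up or down when its p, adjusted by Benjamini-Hochberg over these genes, was 0.05 or less and its log2 fold change reached 1.5 in size.

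In high-Pi most of the 26 genes were lower in the libraries labelled *mus-52* than in wild-type replicates II and III. Of the 26, 9 were called down and 0 up, and the shares of all genes called were 12.6% down and 10.8% up. With an unadjusted p under 0.05 and the same fold, 0 members were up as well, and DESeq2 called 0 up and 9 down. Their median log2 fold change was −0.79, against 0.06 for all genes, and 24 of 26 were below 0, against 48.0% of all genes. All genes were not selected by the rule, so this contrast is a description.

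The largest fall was that of NCU05004, with 0.249, 0.0833 and 0.587 CPM in the libraries labelled *mus-52*, against 3.36 and 4.53 CPM in wild-type replicates II and III. It fell by 3.75 on the log2 scale with a standard error of 0.578 (edgeR, adjusted p = 0.00078). NCU01510 followed with 8.25, 14.2 and 6.88 CPM, against 56.8 and 54.7 CPM, and fell by 2.64 on the log2 scale (edgeR, SE 0.284, adjusted p = 0.00012). Prm1 fell by 1.79 (edgeR, SE 0.191, adjusted p = 0.00012). The other 6 were NCU01348 (−2.34), NCU05850 (−1.73), NCU11172 (−1.71), NCU02321 (−1.55), NCU06803 (−1.54) and NCU03506 (−1.53). Single libraries decided some of these calls: NCU06803 was at −0.95 without wild-type high-Pi replicate II, NCU05850 had an adjusted p of 0.063 (edgeR) without wild-type high-Pi replicate III, NCU03506 was at −1.49 without that same library, and NCU05850 and NCU02321 were at −1.44 and −1.48 without the *mus-52*-labelled high-Pi replicate III. Beside these falls stand the heat shock chaperones, whose summed level was 5135 to 5355 CPM in the *mus-52*-labelled high-Pi libraries and 30283 and 30355 CPM in wild-type replicates II and III, and their part in the falls was not tested. Of the 9 genes, NCU05850 is on the list of 182 genes that the study relates to the mating type, as are NCU07769 and NCU07311 among the other members (3 of 26, 11.5%, against 1.87% of all genes).

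In low-Pi the same strains gave 1 member up and 3 down, where 6.07% of all genes were called up and 7.75% down. NCU06803 rose to 4.22, 3.74 and 4.30 CPM in the libraries labelled *mus-52*, against 1.36, 1.06 and 1.12 CPM in the wild type, or 1.65 higher on the log2 scale with a standard error of 0.285 (edgeR, adjusted p = 0.0016). NCU05004 fell by 3.83 (edgeR, SE 0.512, adjusted p = 0.00046), and NCU09173 and NCU09406 fell by 2.43 and 1.90. For NCU09173 and NCU09406 the wild-type low-Pi libraries were split, with replicate I at 0.784 and 5.24 CPM and replicates II and III at 3.11 to 3.48 and 44.2 to 45.8 CPM. The call of NCU09406 was lost in 6 of 18 alternatives and that of NCU09173 in 2 of 17, with 1 member down without the *mus-52*-labelled low-Pi replicate I and 5 down without wild-type low-Pi replicate I. Leaving out any other library of this comparison except wild-type low-Pi replicate I also ended the call of NCU09406. The summed heat shock level beside these values was 4016 to 4881 CPM in the libraries labelled *mus-52*, against 10629 to 44695 CPM in the wild type, and its part was not tested.

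**Figure D3:**
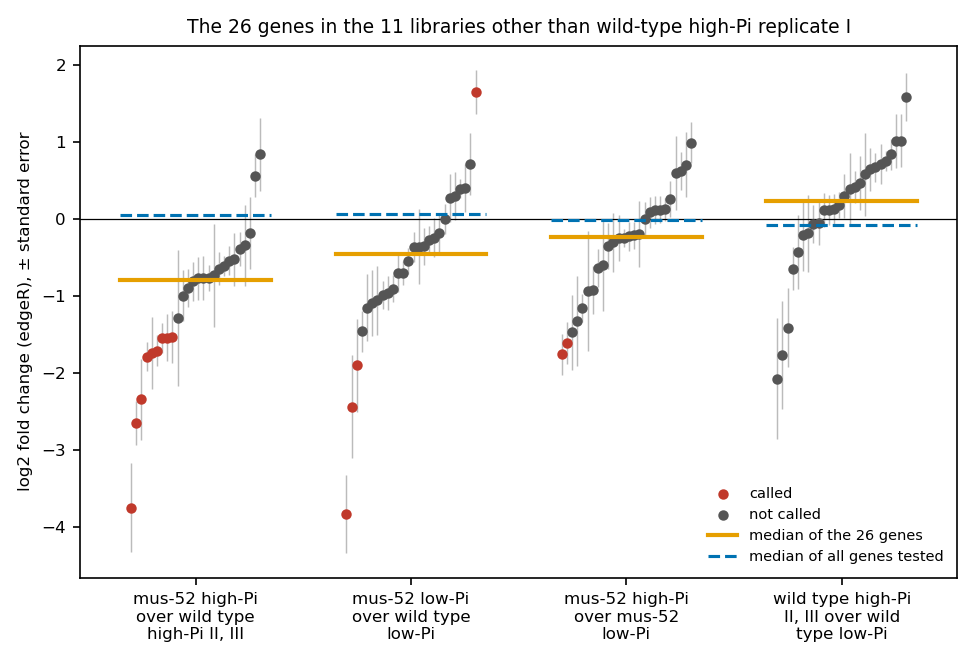
edgeR log2 fold changes of the 26 genes, each with its standard error, in 4 comparisons of the 11 other libraries, with called genes in red. The median of the 26 genes (orange) is −0.79 in the *mus-52*-labelled high-Pi libraries over wild-type high-Pi replicates II and III, against 0.06 for all genes tested (dashed blue).

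Between the media, the libraries labelled *mus-52* gave 0 members up and 2 down in high-Pi against low-Pi, where 0.0384% of all genes were called up and 2.97% down. With an unadjusted p under 0.05 and the same fold 0 members were up, and DESeq2 also called 0. NCU01510 had 8.25, 14.2 and 6.88 CPM in high-Pi, against 34.1, 31.5 and 33.7 CPM in low-Pi, and fell by 1.76 (edgeR, SE 0.261, adjusted p = 0.0034). NCU06803 had 1.30, 1.5 and 1.20 CPM in high-Pi, against 4.22, 3.74 and 4.30 CPM in low-Pi, and fell by 1.61 (edgeR, SE 0.274, adjusted p = 0.0064).

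In the wild type, high-Pi replicates II and III against low-Pi gave 0 members called in either direction, where 0.115% of all genes were called up and 0.0384% down. With an unadjusted p under 0.05 and the same fold 1 member was up and 2 were down, and DESeq2 called 1 up (NCU06803) and 0 down. The labels do not say that same-numbered libraries were paired, but those of a strain deviated together. A fit with the replicate number as a block within each strain was therefore added after seeing the data. It called 2 members up and 3 down, and 0.486% of all genes up and 0.333% down. NCU09406 fell by 2.27 (adjusted p = 2.0e-06 from edgeR), NCU09173 by 2.48 (adjusted p = 0.0014) and NCU05004 by 1.75 (adjusted p = 0.00025), while NCU06803 rose by 1.66 (adjusted p = 0.0018) and NCU03506 by 1.55 (adjusted p = 0.00012). In the block fit wild-type low-Pi replicate I has no partner in high-Pi, so these calls rest on wild-type replicates II and III. Leaving out wild-type low-Pi replicate I is nearly the same comparison, and the same 5 genes were called in the same directions.

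The values of these 5 genes by replicate number are given as a description, because the rule itself sets replicate I at least 4-fold higher in high-Pi than in low-Pi. NCU09406 had 10.4 and 7.98 CPM in high-Pi replicates II and III, against 44.2 and 45.8 CPM in the low-Pi libraries of these numbers, and in the number I libraries it had 409 CPM in high-Pi, against 5.24 CPM in low-Pi. NCU09173 and NCU05004 were also lower in high-Pi in replicates II and III, while NCU06803 and NCU03506 were higher there in both.

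**Figure D4:**
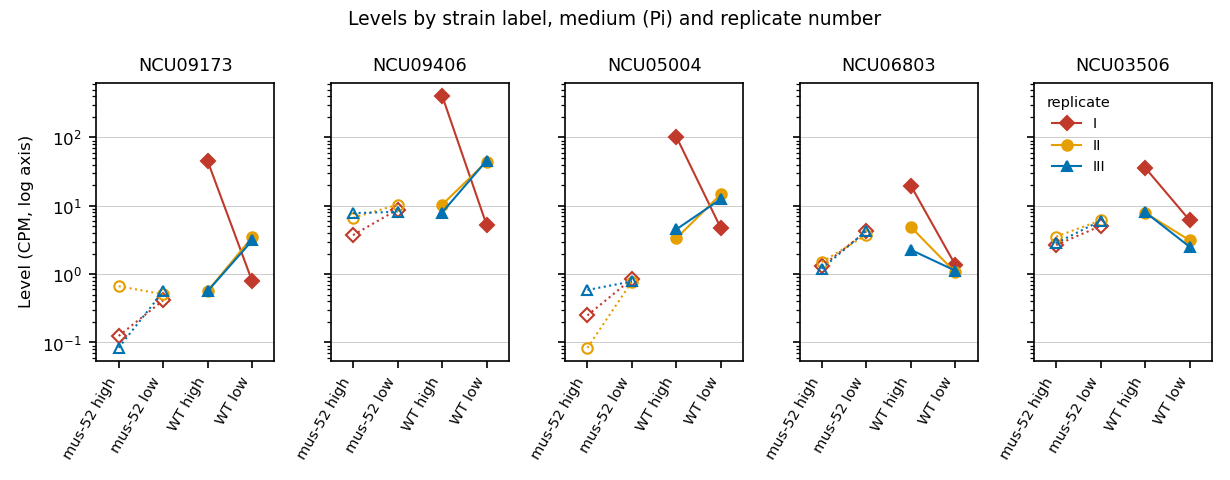
CPM on a log axis of 5 members by strain label, medium and replicate number, with a line joining the libraries of the same number. In NCU09173, NCU09406 and NCU05004 the wild-type lines of replicates II and III run lower in high-Pi than in low-Pi, while the line of replicate I runs the other way, as the selection requires, reaching 44.8, 409 and 101 CPM in high-Pi.

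The response to Pi was also compared between the strains, as the response of the libraries labelled *mus-52* minus that of the wild type (replicates II and III in high-Pi). Of the 26 genes, 0 were called up and 3 down, where 0.205% of all genes were called up and 3.54% down. With an unadjusted p under 0.05 and the same fold 0 were up, and DESeq2 called 0 up and 3 down. The difference was −3.19 for NCU06803 (edgeR, SE 0.416, adjusted p = 0.0019), −2.40 for NCU01510 (edgeR, SE 0.378, adjusted p = 0.0056) and −1.94 for NCU03506 (edgeR, SE 0.465, adjusted p = 0.038). NCU06803 and NCU01510 were thus lower in high-Pi in the *mus-52*-labelled libraries and, in the wild type, had 2.27 to 4.89 and 54.7 to 56.8 CPM in high-Pi replicates II and III, against 1.06 to 1.36 and 26.2 to 41.8 CPM in low-Pi. With the block within each strain the same 3 were down and NCU09406 was up by 1.61 (edgeR, adjusted p = 0.00022), where that fit called 5.04% of all genes down and 0.486% up. Without wild-type low-Pi replicate I, which leaves nearly the same wild-type comparison as that block, NCU09406 was also up, by 1.68. These comparisons share libraries with those of strain and medium above. The call of NCU03506 was lost with the replicate number as a single block for both strains and in 9 of the 11 alternatives that each left out 1 library.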

How the data were processed

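The authors mapped the reads of 12 libraries, biological triplicates of 2 strains in 2 media, and deposited raw counts of reads per gene. FastQC 0.11.2, Bowtie2 2.1.0 and DESeq 1.28.0 are named in the submitters' processing notes, and the counting tool, strand and multi-mapping are not given in the sources used here. The authors' deposited DESeq comparisons (fold changes and p-values) were not used.

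CPM used column totals (17574263 to 56152963 counts, with 3 counts equal to 0.0534 to 0.171 CPM, which covers counting error only). Log2 ratios of lists used CPM + 0.5. Wild-type high-Pi replicate I chose the genes and was left out of the tests, which used edgeR 4.0.16 (filterByExpr, TMM, robust quasi-likelihood, 4 groups, Benjamini-Hochberg) in R 4.3.3 and, as an alternative, DESeq2 1.42.0. Members and lists were chosen with earlier results of these data known. Genes named were those with the largest ratios, the highest levels, a product name, a call, a place on a list or near the threshold, or on the study's list of high-Pi genes. The remaining members and *mfa-1*, *so*, *mak-2*, *nit-3*, *am*, *hsp98*, *hsp30* and *grp78* were named after their values were seen. Product names came from the study's tables (names only), and positions from RefSeq (NC12 assembly), where 9729 of 9730 IDs were found.

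Same-numbered libraries of a strain deviated together (correlations across 7013 genes of 0.433, 0.201 and 0.224 for *mus-52*-labelled pairs, against 0.356, 0.224 and 0.386 for wild-type pairs), but those of different strains did not (−0.157 to −0.0219).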

Additional observations from a re-analysis of the deposited data

Results flagged for a closer look

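The response to Pi (high-Pi over low-Pi) differed between the strains for 3 of the 26 genes, as tested by the interaction in edgeR on 11 libraries, where 3.54% of all genes were called down and 0.205% up. The response of the libraries labelled *mus-52* minus that of the wild type was −3.19 on the log2 scale for NCU06803, the glutamate decarboxylase (adjusted p = 0.0019), −2.40 for NCU01510 (adjusted p = 0.0056) and −1.94 for NCU03506 (adjusted p = 0.038). The call of NCU03506 was kept in 8 of 19 alternatives and was lost with the replicate number as a single block for both strains, and those of the other 2 genes were kept in all 19. The mating type differs with the strain, so these cannot be told apart.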

How the results depend on the processing

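The selection gave 10 genes on TMM-scaled CPM, 69 at a ratio of 3 and 9 at a ratio of 6. For the strains in low-Pi (*mus-52*-labelled over wild type), the adjusted p alone gave 2 members up and 11 down, and 1 was down with at least 10 counts in every library and with all 12 libraries. Leaving out 1 library gave 1 to 5 down there. In high-Pi, 18 were down by the adjusted p alone and 21 with all 12 libraries, a fit that puts back the library that chose the genes, so that its counts are built in and support nothing, and leaving out 1 library gave 0 to 1 up (1 without wild-type high-Pi replicate II). For the media in the libraries labelled *mus-52*, all 12 libraries gave 1 down. For the media in the wild type, DESeq2 gave 1 up, the replicate block within each strain and number I left out of all groups each gave 2 up and 3 down, and leaving out 1 library gave 0 to 2 up and 0 to 3 down. For the interaction, the within-strain block and number I left out each gave 1 up, leaving out 1 library gave 0 to 1 up, and the adjusted p alone gave 5 down. A replicate block shared by both strains gave 0 up and 2 down for the interaction, and 9 down for the strains in high-Pi. The within-strain block, all interaction alternatives and the count of the rule without each library were chosen after seeing the data. The fold changes of called members kept their direction under all alternatives run. In the wild type (high-Pi over low-Pi), where they were not called, NCU09173, NCU09406 and NCU05004 were at −2.07, −1.76 and −1.41 without the single library and at 2.20, 1.72 and 1.34 with all 12. The list medians of nucleolar, housekeeping and autophagy genes were 0.41, 0.07 and 0.03 by column totals and −0.04, −0.37 and −0.45 by TMM. The causes of these shifts were not tested, except that fewer libraries or genes enter some fits. Genes under 0.171 CPM in the shallowest library are not distinguishable from a count of 0.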
